A study of Mus musculus with 18 samples.

Results

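The genes described here set one bone marrow progenitor, the preMegE, apart from a population above it and one below it in blood formation. A gene was taken when it was higher, or lower, in wild-type preMegE than in both hematopoietic stem cells (HSC) and preCFU-E. Of 20907 autosomal genes tested, 682 met the rule as higher and 220 as lower, which is 3.26% and 1.05% of the genes tested. Each passed an edgeR contrast of preMegE minus the mean of the other 2 populations at a Benjamini-Hochberg adjusted p below 0.05. In addition, all 3 preMegE libraries lay above, or below, all 3 HSC and all 3 preCFU-E libraries. These values chose the genes, so WT levels and contrasts are given as a description. The contrast by itself called 2556 genes (12.2%). Non-overlap by itself held for 912 genes as higher (4.36%) and 384 as lower (1.84%). The count of lower genes depended on single libraries, with 128 without preMegE WT 2 and 143 without preMegE WT 3.

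Total RNA was sequenced from populations sorted from the bone marrow of C57BL/6 mice, with 3 libraries for each of 6 groups, which the labels call biological replicates. Ptbp1 fl/fl mice are the wild type (WT): their Ptbp1 alleles carry loxP sites and are not deleted. Ptbp1 KO mice lack Ptbp1, an RNA-binding regulator of splicing. The labels name neither the Cre line behind the deletion nor the animals' age. HSC were Lin-, Sca-1+, c-kit+, CD150+ and CD48-. Both progenitors were CD150+ and c-kit+, without Sca-1 and lineage markers, and also CD41- and FcgRII/III-. They differed in CD105, which was absent from preMegE and present on preCFU-E. The contrast and the non-overlap that chose the genes compared the 9 WT libraries. The 9 KO libraries entered that choice only through the filter on low counts, the scaling and the shared estimate of spread. A fit of the WT libraries alone called 805 higher and 272 lower genes. KO levels are given beside those of WT.

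PreMegE cells are progenitors with both megakaryocyte and erythroid potential. Megakaryocytes release platelets, and preCFU-E cells lie on the path to red cells. The transcription factor GATA2 acts early in these lineages and is also needed by mast cells and basophils. Red cell genes are among those driven by GATA1 and KLF1.

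The WT libraries held 15956408 to 29226287 estimated reads, of which mitochondrial ribosomal RNA took 14.2% to 30.7%. Among the preMegE libraries that share was 23.6% in replicate 1, 14.7% in replicate 2 and 14.2% in replicate 3. Replicates spread most in HSC, with a common biological coefficient of variation of 0.45 against 0.187 in preMegE and 0.155 in preCFU-E. HSC libraries had 6738 to 7796 CPM (read counts scaled to 1 common library size, with TMM factors) of Xist and at most 0.604 of the Y-linked Eif2s3y, while WT progenitor libraries had at most 0.889 of Xist and 38.3 to 85.2 of Eif2s3y. Sex and population therefore cannot be told apart on the HSC side, also for autosomal genes. Ptbp1 itself had 596, 697 and 787 CPM in WT preMegE, between HSC at 196 to 221 and preCFU-E at 1116 to 1345. In KO it was lower in each population, at 90.3, 108 and 96.3 CPM in HSC, 189, 187 and 232 in preMegE and 298, 303 and 318 in preCFU-E, and the deleted part of the gene is not given in the sources used here.

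The preMegE label held against its markers. The stem cell factor Hlf was at 24.9, 29.7 and 28.6 CPM in preMegE, against 612 to 618 in HSC. Klf1, the erythroid activator, was at 63.9, 60.6 and 69.2 CPM, between HSC at 0.284 to 1.33 and preCFU-E at 170.5 to 200.1. The X-linked Gata1 stood at 59.6, 68.3 and 86.2 CPM.

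Sequences upstream of 4 genes are shown. Ms4a2, Kcnc1 and Cpa3 had the largest difference from the nearer population among protein-coding genes of at least 10 CPM in preMegE. Clca3a1 was among the 10 protein-coding genes furthest below the nearer population, of those with at least 10 CPM in both others. It was not taken by rank. Differences over these 10 ran from 1.31 to 3.18 (log2) in size, and that of Clca3a1 was among the smallest. The 250 bases before each RefSeq start site are printed on the gene's own strand, from RefSeq with build GRCm38.p6. Capitals mark the letters AGATAA or TGATAA, read on both strands (as TTATCT or TTATCA), which are the core letters of GATA factor binding. The windows are chr19:11623720-11623969 (minus) for Ms4a2, chr7:46396218-46396467 (plus) for Kcnc1, chr3:20242182-20242431 (minus) for Cpa3 and chr3:144760978-144761227 (minus) for Clca3a1.
Ms4a2: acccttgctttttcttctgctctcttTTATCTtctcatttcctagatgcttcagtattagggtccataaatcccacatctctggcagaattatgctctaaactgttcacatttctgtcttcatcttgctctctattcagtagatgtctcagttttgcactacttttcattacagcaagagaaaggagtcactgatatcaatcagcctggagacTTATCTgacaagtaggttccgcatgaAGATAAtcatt
Kcnc1: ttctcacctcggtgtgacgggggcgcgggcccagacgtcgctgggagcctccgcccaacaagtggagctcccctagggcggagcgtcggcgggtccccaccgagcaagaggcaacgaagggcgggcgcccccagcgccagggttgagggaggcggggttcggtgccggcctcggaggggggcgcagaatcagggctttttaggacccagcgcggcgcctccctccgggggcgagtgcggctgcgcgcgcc
Cpa3: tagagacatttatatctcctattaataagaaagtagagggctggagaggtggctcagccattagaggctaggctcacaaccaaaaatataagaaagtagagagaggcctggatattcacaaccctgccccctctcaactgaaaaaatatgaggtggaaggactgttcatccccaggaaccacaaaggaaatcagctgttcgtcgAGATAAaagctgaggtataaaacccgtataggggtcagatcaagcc
Clca3a1: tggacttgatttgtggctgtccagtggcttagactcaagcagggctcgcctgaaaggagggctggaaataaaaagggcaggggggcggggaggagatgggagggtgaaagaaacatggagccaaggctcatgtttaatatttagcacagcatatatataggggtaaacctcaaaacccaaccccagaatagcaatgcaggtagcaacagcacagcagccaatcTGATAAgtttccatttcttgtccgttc

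Ms4a2 carried 3 such matches, with first bases 224, 37 and 11 bases before the start. Cpa3 carried 1, at 46 bases, and Clca3a1, a gene low in preMegE, also carried 1, at 27 bases. Kcnc1, one of the highest, carried none. Over all tested genes with a RefSeq window, 1443 of 12385 (11.7%) held such a match, and the share was 59 of 505 (11.7%) for the higher genes and 17 of 160 (10.6%) for the lower ones. A match to the RUNX core TGTGGT on either strand was held by 1443 windows (11.7%) of all genes, 63 (12.5%) of the higher and 19 (11.9%) of the lower genes. Neither set of letters was thus more common by more than 1 percentage point among the higher or lower genes. The matches are letters in a window and no measure of binding.

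A granule and a receptor gene of mast cells and basophils, Cpa3 and Ms4a2, were among the 3 furthest above both other populations of the protein-coding genes with at least 10 CPM in preMegE. Ms4a2 had 5.7, 13.4 and 12.6 CPM in preMegE, 0.533, 0.0946 and 0.202 in HSC and 0.117, 0.364 and 0.355 in preCFU-E. Ms4a2 (ENSMUSG00000024680, chromosome 19, 11615523 to 11623719) encodes the beta chain of the high-affinity IgE receptor, and its 3 preMegE libraries lay at least 10 times above every other WT library, with the lowest in replicate 1. Its contrast, on the log2 scale of the edgeR fit, was 5.23 (SE 0.64, adjusted p 5.8e-06). Cpa3 had 37.6, 51 and 43.8 CPM in preMegE, 0.875, 1.09 and 2.87 in HSC and 2.66, 3.17 and 2.2 in preCFU-E. Cpa3 (ENSMUSG00000001865, chromosome 3, 20215620 to 20242181), the mast cell carboxypeptidase, was high in each preMegE library and low in all 6 others, with a contrast of 4.41 (SE 0.35, adjusted p 1.24e-08). In these bulk samples fewer cells of a type and less RNA per cell cannot be told apart.

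Of 18 tested genes on a list of basophil, mast cell and eosinophil genes, 5 were higher and none was lower (3.26% and 1.05% of all genes), with a median contrast of 1.84 against -0.05 over all tested genes. The list's median difference was -0.26 from HSC and 1.11 from preCFU-E, against -0.43 and 0.18 over all tested genes, so the typical member was not above HSC. Besides Ms4a2 and Cpa3 the higher genes were Gzmb, Srgn and Gata2. Srgn, the proteoglycan core of secretory granules, had 422, 491 and 417 CPM in preMegE against 197 to 257 in HSC and 224 to 255 in preCFU-E. Gzmb, a granule protease, stayed under 1 CPM in WT preMegE (0.162, 0.331 and 0.707) and was 0 in every WT preCFU-E library, and it fell below the low-count filter, so was not tested, in the fit of WT libraries alone and in both fits with a replicate block. The defining granule proteases of mature cells were at or near 0 in WT preMegE: Prss34, Tpsab1, Tpsb2 and Mcpt4 had no read, and Mcpt8 was 0, 0.184 and 0 CPM. Epx, the eosinophil peroxidase, was 0 in all 3. Fcer1a, the alpha chain of the IgE receptor, had 1.09, 1.25 and 0.848 CPM, within the HSC range of 0 to 2.37, and did not pass (adjusted p 0.318). Hdc, another marker of mast cells and basophils, had a positive contrast (adjusted p 0.014) but did not meet the full rule. Its adjusted p rose to as much as 0.0682 without preMegE WT 2 or preMegE WT 3, and to 0.09 with a replicate block in the progenitors. The summed level of the list was 1026 to 1199 CPM in preMegE, 433 to 494 in HSC and 457 to 542 in preCFU-E. Srgn and Gata2 made up most of this sum in each population, so it says little about the other members. The part of other cells in this sum was not tested.

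Further genes with the largest differences have different known roles. Kcnc1 had 32.7, 39.6 and 35 CPM in preMegE, 1.45, 0.52 and 2.52 in HSC and 1.33, 0.936 and 0.782 in preCFU-E. Kcnc1 (ENSMUSG00000058975, chromosome 7, 46396497 to 46438704) encodes a voltage-gated potassium channel best known from fast-firing neurons, and the groups did not overlap, with a contrast of 4.84 (SE 0.33, adjusted p 2.1e-09). Btnl9 had 75.6, 78.8 and 69.9 CPM in preMegE, 3.5, 5.58 and 4.48 in HSC and 7.39, 5.2 and 4.62 in preCFU-E. Btnl9, of the butyrophilin family, had the smallest p of the genes named by size, with a contrast of 3.87 (SE 0.19, adjusted p 1.97e-11). Pdzph1 had 39, 53 and 30.2 CPM in preMegE, 0, 0 and 0 in HSC and 3.17, 3.59 and 2.35 in preCFU-E. Pdzph1, a gene for a protein with PDZ and PH domains, had no read in any HSC library, and its preMegE mean was at least 300.0-fold higher than HSC, taking 3 reads per library as the limit of a count of 0, which covers counting error only. Against preCFU-E its log2 difference was 3.73.

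Vim encodes the intermediate filament protein vimentin. Vim had 489, 648 and 637 CPM in preMegE, 65, 58.3 and 48.7 in HSC and 46.8, 52.8 and 58.9 in preCFU-E. Every preMegE library was above 400 CPM and every other WT library was under 70, for a contrast of 3.42 (SE 0.19, adjusted p 2.15e-10). Nkg7, a granule membrane protein of cytotoxic lymphocytes, had 203, 252 and 274 CPM in preMegE, 21.3, 5.72 and 4.28 in HSC and 23.3, 25.1 and 24.6 in preCFU-E. Among the HSC libraries, replicate 1 was the highest for Nkg7 but still well below preMegE (contrast 3.92, SE 0.36, adjusted p 2.05e-06). Mpo, the myeloperoxidase of granulocyte precursors, had 29.8, 45.8 and 44.9 CPM against 1.8 to 7.1 and 0.416 to 6.45, and its contrast of 3.29 (SE 0.76, adjusted p 0.0115) had a large SE, with HSC and preCFU-E libraries that each spread several-fold. Rab44, a large Rab GTPase, had 10.7, 13 and 11.2 CPM in preMegE. Bin1, a membrane-bending BAR domain protein, had 15.2, 18.4 and 17.6 CPM, and Ddah2, of the dimethylarginine hydrolase family, had 30.1, 33.4 and 42.2. Tnfaip8l2, a regulator of immune signalling, had 18.3, 18.1 and 17.1 CPM. None of these last 4 exceeded 6 CPM in any other WT library. The 14 named genes kept their call in all 10 alternative analyses and with each WT library left out, and 12 of the 14 also passed with both pairwise differences adjusted.

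**Figure D1:**
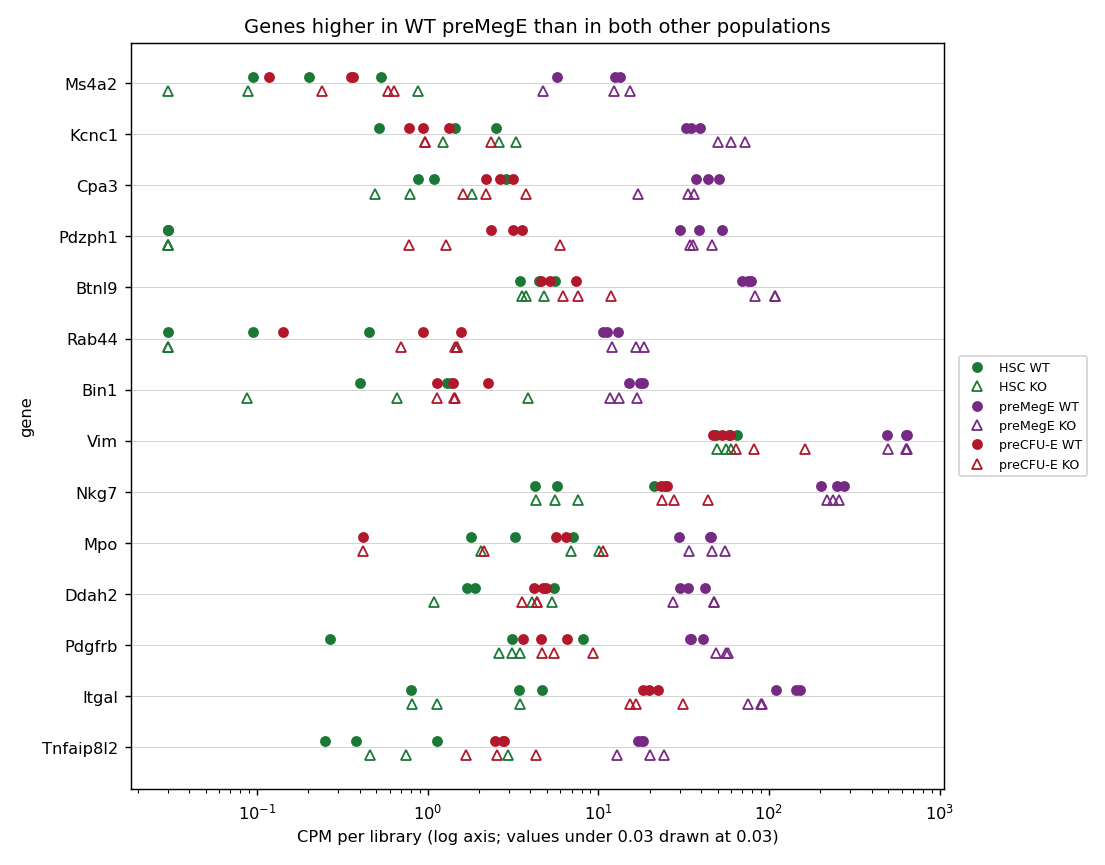
CPM per library on a log axis for the 14 protein-coding genes with the largest difference above the nearer population; filled circles are WT libraries, open triangles KO libraries, and colours are populations. Each of the 3 preMegE WT points lies to the right of all 6 other WT points, as for Vim at 489, 648 and 637 CPM.

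Among the 682 higher genes, 634 were protein-coding, 15 lincRNA and 7 antisense genes. The mean in WT preMegE was at least 10 CPM for 552 of them and at least 100 CPM for 192, and 30 lay under 1 CPM. In 405 the nearer population was preCFU-E and in 276 it was HSC, and 1 gene was equally far from both. For 450 of the 682, HSC and preCFU-E were within 1 log2 unit of each other, so that preMegE stood above 2 similar levels. Most differences from the nearer population were moderate: their median was 0.71 (log2), and 240 genes reached 1. When both pairwise differences had to pass after adjustment, 184 genes remained (0.88% of those tested), each of them among the 682. The lower genes showed the same arrangement with a median of -0.73, 80 genes past 1, and 35 with both differences adjusted (0.167%). Without preMegE WT 2 these last counts were 116 higher and 16 lower genes, and without preMegE WT 3 the lower count was 21. The fit of WT libraries alone gave 57 lower genes by that measure, DESeq2 85 and length-scaled counts 18. Just inside the threshold lay Wdr90, a WD-repeat protein that was lower (contrast -0.95, adjusted p 0.0499), and just outside it Zcrb1, an RNA-binding protein (contrast -0.53, adjusted p 0.05).

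The 3 lincRNA or antisense genes named by size were called higher. Gm17590, an antisense gene on chromosome 5, had 34.4, 35.9 and 31.9 CPM in preMegE against 3.27 to 4.87 in HSC and 2.19 to 4.22 in preCFU-E (contrast 3.32, SE 0.39, adjusted p 1.02e-05). Its exons overlap Cdk6, a far more abundant gene on the opposite strand. Gm37233 on chromosome 1 had 23.1, 11.4 and 10.7 CPM against 4.28 to 10.03 and 3.28 to 7.12, with replicate 1 the highest. Gm26870 on chromosome 9 had 140.4, 46.9 and 49.7 CPM, again highest in replicate 1, against 0.353 to 6.89 and 23.7 to 41.4. Its exons overlap those of Gm10718, Gm10719, Gm10721 and Gm11168 on the opposite strand, so its value is uncertain.

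**Figure D2:**
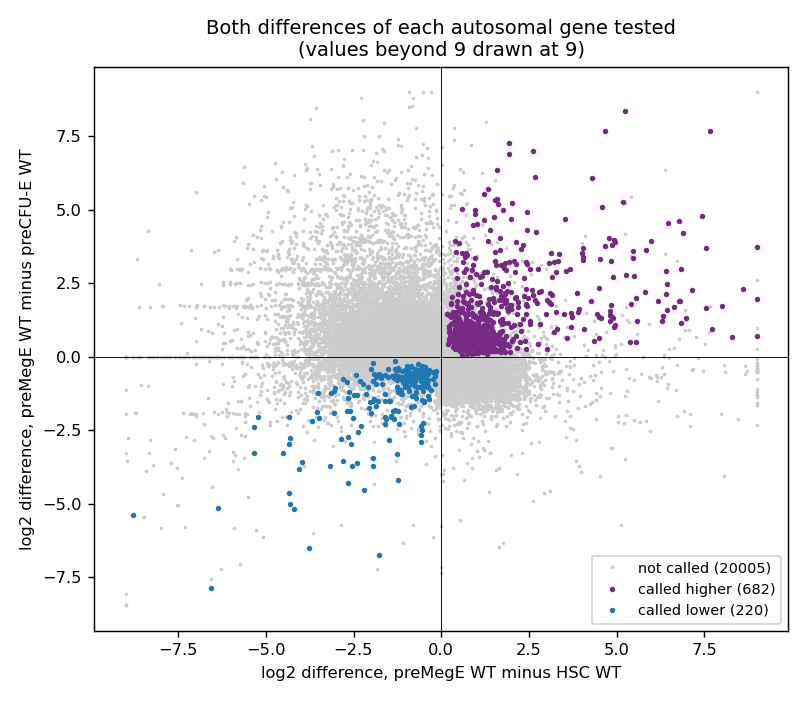
Log2 difference of preMegE WT from HSC WT (x) and from preCFU-E WT (y) for each of the 20907 autosomal genes tested, with values beyond 9 drawn at 9. The 682 higher genes fill the upper right and the 220 lower genes the lower left, while most genes lie in the other quadrants or near an axis.

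Megakaryocyte and platelet genes were a second group. Of 34 tested, 9 were higher (Itga2b, Gp5, Treml1, F2rl2, P2ry1, Slc35d3, Cd9, Plek and Nfe2) and none lower, against 3.26% and 1.05% of all tested genes. The median contrast of the list was 1.35. Its median difference was -0.014 from HSC and 3.70 from preCFU-E, so the typical member was not above HSC. Of the 34, 4 passed in WT with both pairwise differences adjusted, and 4 were called higher in KO. Itga2b had 72.4, 92 and 84.3 CPM in preMegE, 26.6, 23.7 and 32.8 in HSC and 1.8, 2.34 and 1.85 in preCFU-E. Itga2b (ENSMUSG00000034664, chromosome 11, 102453297 to 102470122) encodes CD41, the alpha chain of the platelet fibrinogen receptor, and its groups were ordered preMegE, HSC, preCFU-E without overlap (contrast 3.48, SE 0.25, adjusted p 3.38e-09). With length-scaled counts its preMegE and HSC libraries overlapped. The preMegE gate took cells without CD41 on the surface, so this RNA was measured in cells sorted as negative for the protein. Plek had 256, 293 and 214 CPM in preMegE, 89.9, 63.5 and 103 in HSC and 4.38, 2.29 and 2.35 in preCFU-E. Plek, the platelet signalling protein pleckstrin, followed the same order, with a contrast of 3.97 (SE 0.29, adjusted p 6.16e-08). F2rl2, a thrombin receptor of platelets, had 32.9, 27.8 and 23 CPM in preMegE against 9.87 to 15.8 in HSC and 0.711 to 1.56 in preCFU-E. P2ry1, an ADP receptor of platelets, had 67.2, 69.2 and 51.8 CPM against 11.3 to 18.2 and 41.8 to 44.9, so that its nearer population was preCFU-E.

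Several well-known platelet genes did not belong. Vwf, the clotting factor carrier, had 21.9, 22.5 and 17.2 CPM in preMegE, under every HSC library (95.9, 84.8 and 91.5). Pf4, a chemokine of platelet granules, had 7.03, 5.66 and 4.33 CPM in preMegE and 22.3, 6.91 and 38.7 in HSC, where replicate 2 reached into the preMegE range. Gp9 overlapped between preMegE (16.5, 21.4 and 17.4 CPM) and HSC (10.3, 22.4 and 13.1 CPM). Summed over the list, the level was 1210 to 1341 CPM in preMegE, below the 1470 to 1617 of HSC and above the 339.9 to 372 of preCFU-E.

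Of 38 erythroid genes none was higher and 2 were lower, Epb42 and Slc25a37, with a median contrast of -0.03. This list lay between the other populations: its summed level was 3103 to 3443 CPM in preMegE, 642 to 819 in HSC and 12120 to 14770 in preCFU-E. Epb42, a red cell membrane protein, had 3.51, 2.28 and 2.35 CPM against 4.4 to 7.42 and 4.76 to 8.01. Its call (adjusted p 0.014) was lost without preMegE WT 2, preMegE WT 3 or preCFU-E WT 2, with an adjusted p of up to 0.105, and with length-scaled counts (0.0547) or a replicate block in the progenitors (0.0524). The call of Slc25a37, the mitochondrial iron carrier, was kept only without HSC WT 2 and otherwise reached 0.249, and 4 of 10 alternative analyses ended it (up to 0.376). Stem cell genes likewise gave 3 higher and 2 lower of 42 (7.1% and 4.8%, against 3.26% and 1.05% of all tested genes). Tek, the angiopoietin receptor, had 39.4, 51.1 and 50.7 CPM in preMegE against 28.8 to 34.7 in HSC and 2.6 to 4.89 in preCFU-E. Adgrg1 and Txnip were the other 2 higher genes. With length-scaled counts none of these 3 was clear of both populations, and Adgrg1 was not in 6 of 10 alternative analyses. Mllt3, a chromatin reader needed by stem cells, was the clearest lower one. Mllt3 had 52.1, 51.6 and 45.8 CPM in preMegE, 227, 192 and 223 in HSC and 96.8, 113 and 96 in preCFU-E, so that preMegE lay below both without overlap (contrast -1.57, SE 0.16, adjusted p 4.47e-07). Abcg2, a drug efflux pump, had 34.7, 37.5 and 38 CPM in preMegE against 67.3 to 78.6 and 62.6 to 76.8, which is a dip between 2 overlapping groups.

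Blood transcription factors gave 11 higher and 1 lower gene of 74 tested (14.9% and 1.35%, against 3.26% and 1.05% of all tested genes), with a median contrast of 0.52. Gata2 had 453, 463 and 602 CPM in preMegE, 159.5, 148 and 155 in HSC and 110.3, 96.2 and 157 in preCFU-E. Gata2 (ENSMUSG00000015053, chromosome 6, 88193891 to 88207032) was at least 2 times as high in each preMegE library as in any other WT library, with a contrast of 1.89 (SE 0.14, adjusted p 5.74e-09). Nfe2, an activator of platelet genes, had 139, 140.2 and 146 CPM in preMegE against 36.9 to 49.2 in HSC and 63.7 to 66.7 in preCFU-E, with no overlap (contrast 1.42, SE 0.13, adjusted p 6.16e-08). Mef2c, a factor of megakaryocyte and lymphoid cells, had 460.0, 494 and 452 CPM against 242 to 264 and 88.9 to 104 (contrast 1.59, SE 0.14, adjusted p 3.9e-08). The ETS factor Elf1 stood at 320.5, 341 and 316 CPM, about even across the 3 libraries and above 143 to 154 and 166 to 188 (contrast 1.02, SE 0.11, adjusted p 8.71e-07). Runx3, Etv6, Cbfa2t3, Stat5b and Bach1 were also higher, with contrasts of 1.46, 0.88, 0.75, 0.87 and 0.64. Length-scaled counts ended the call of Etv6 (adjusted p 0.165) and the non-overlap of Bach1, while Stat5b overlapped with RLE scaling, with DESeq2 and without HSC WT 3, preMegE WT 2 or preMegE WT 3. Klf9 was the single lower factor, at 9.05, 9.11 and 12.2 CPM against 21.4 to 24.2 and 24.1 to 25. The remaining 2 higher factors depended on single libraries. Cebpa, the granulocyte factor, had 2.22, 3.2 and 2.59 CPM, and its adjusted p of 0.012 became 0.0657 without preMegE WT 2 and 0.0644 with a replicate block in the progenitors. Zbtb16 had 27.1, 46.2 and 27 CPM, and its adjusted p of 0.0241 rose to as much as 0.154 without preMegE WT 2 or HSC WT 3, and to 0.0686 with no filter.

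**Figure D3:**
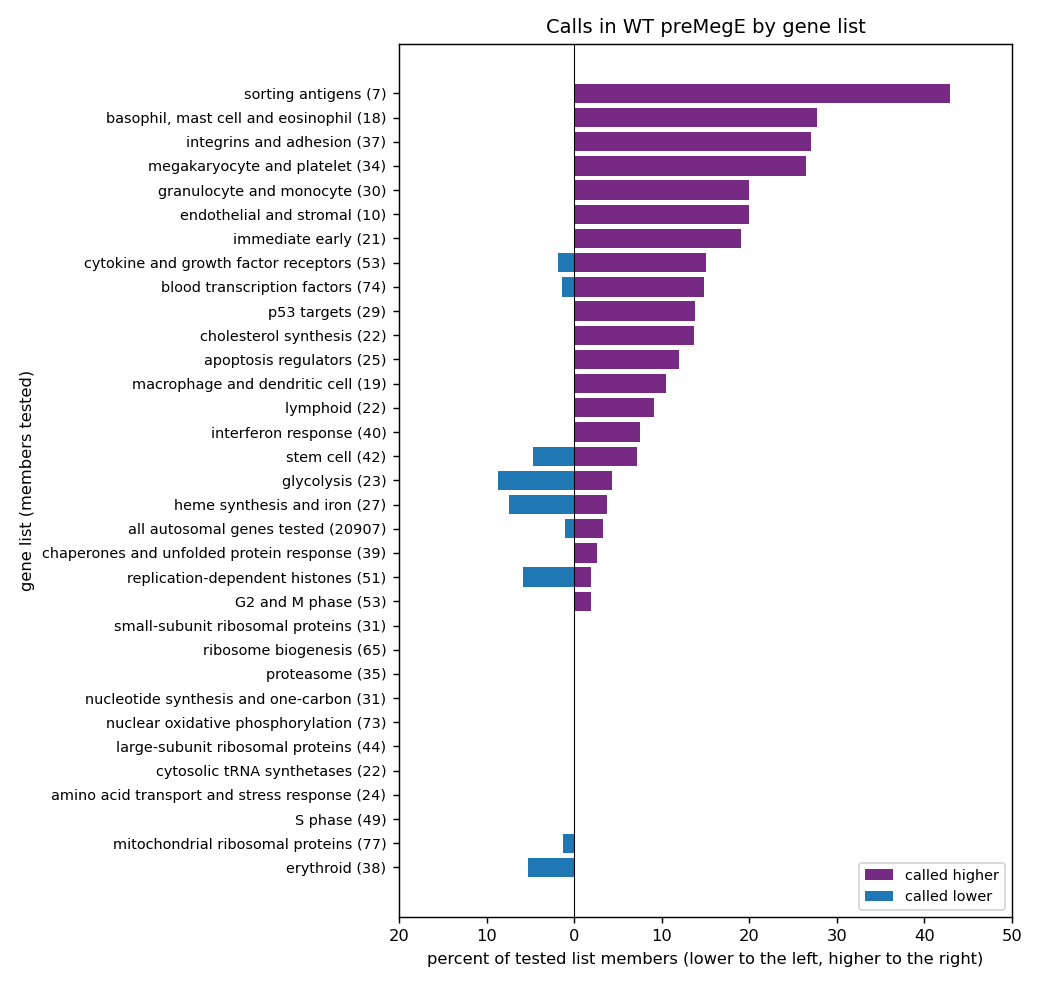
Percent of each list's tested members called higher (right) or lower (left) in preMegE WT, with the number tested in brackets; the row for all 20907 autosomal genes marks 3.26% and 1.05%. Lists of sorting antigens, mast cell, adhesion and megakaryocyte genes extend furthest to the right, and cytosolic ribosomal, respiratory and proteasome lists have no bar. The PTB family list, with 3 genes tested, is not drawn.

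Of 37 integrins and adhesion molecules 10 were higher (27.0%, against 3.26% of all tested genes) and none was lower, with a median contrast of 0.47. Itgal had 110.5, 152 and 144 CPM in preMegE, 4.68, 0.804 and 3.42 in HSC and 18.2, 19.9 and 22.5 in preCFU-E. Itgal encodes the alpha chain of the leukocyte integrin LFA-1, and its preMegE values were far from both other groups (contrast 4.12, SE 0.38, adjusted p 1.62e-06). Its partner chain Itgb2 had 58.6, 78 and 61.4 CPM in preMegE against 14.4 to 34.6 and 27.5 to 32.4, so both chains of that integrin were higher (contrast 1.32, SE 0.23, adjusted p 0.00029). Itgb7, Itga2, Itga6, Itga2b, Pecam1, Cd47, Selplg and Cd9 completed the 10. Length-scaled counts ended the call of Itgb7 (adjusted p 0.204), Itga2 overlapped in 3 of 10 alternative analyses and Itga6 in 6, and Selplg in 4 and in 6 of 9 fits with a library left out, those without HSC WT 1 or 3, preMegE WT 2 or 3 or preCFU-E WT 2 or 3. Cd47, the signal that limits uptake by macrophages, had 1213, 1191 and 988 CPM against 595 to 610.2 and 756 to 839.

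Of 53 cytokine and growth factor receptors, 8 were higher and 1, Igf2r, was lower (15.1% and 1.89%, against 3.26% and 1.05% of all tested genes). The list's median difference was -0.67 from HSC and 0.91 from preCFU-E. S1pr1, the sphingosine 1-phosphate receptor that guides exit into blood, had 38.6, 35.1 and 37.3 CPM in preMegE against 6.78 to 12.6 in HSC and 1.98 to 5.59 in preCFU-E (contrast 2.58, SE 0.35, adjusted p 2.29e-05). Pdgfrb, a receptor of platelet-derived growth factor, had 34.9, 41.1 and 34.6 CPM against 0.266, 8.13 and 3.12 and 6.57, 4.63 and 3.63, with HSC replicate 1 the lowest (contrast 3.08, SE 0.49, adjusted p 0.000383). In both receptors each preMegE library was well above the other 6 libraries. Tgfbr2, the type II TGF-beta receptor, had 61.2, 67.7 and 60.3 CPM against 27.5 to 31.4 and 23.5 to 25.3 (contrast 1.25, SE 0.14, adjusted p 1.47e-06). Igf1r had 509.7, 457 and 440.2 CPM against 259 to 279 and 235 to 245 (contrast 0.88, SE 0.09, adjusted p 4.47e-07). Tgfbr3, Tek, Tnfrsf1a and Ifnar1 were the others, and length-scaled counts ended the adjusted call of Tnfrsf1a (0.0948) and the non-overlap of Ifnar1 and Tek.

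Granulocyte and monocyte genes gave 6 higher genes of 30 and none lower (3.26% and 1.05% of all tested genes), at a median contrast of 0.21. The list's median difference was -0.41 from HSC and 1.03 from preCFU-E. Besides Mpo and Cebpa the higher genes were Plac8, Fcgr2b, Ms4a3 and Ctsg. Plac8 had 105, 107 and 80.2 CPM in preMegE, 5.97, 2.98 and 3.93 in HSC and 23.5, 24.8 and 9.53 in preCFU-E, which is clear of both groups. Ctsg, a neutrophil protease, was under 1.5 CPM in every WT library, and its call was kept only without HSC WT 3 or preCFU-E WT 1 (adjusted p 0.0406, up to 0.159 otherwise). Defining genes of these cells were low in preMegE: Elane had 0.808, 1.91 and 0.848 CPM, Prtn3 0.808, 1.73 and 0.754 and Csf1r 0.767, 0.808 and 0.754. Without preMegE WT 2 the list held 4 higher genes. Some markers of further cells were also scarce. C1qa stayed under 0.1 CPM and Adgre1 under 0.5 in WT preMegE, and Cdh5, which defines endothelium, had no read, although Apoe (231, 250.3 and 335 CPM), Cd163 (45.8, 44.5 and 36.8 CPM) and Pecam1 (48.5, 52.3 and 40.8 CPM) on those lists were higher. Among other markers, Kdr of endothelium had a positive contrast (adjusted p 0.00586). Vcam1 of macrophages and the stromal Cxcl12 and Col1a1 did not pass (adjusted p 0.379, 0.0615 and 0.766). Of 22 lymphoid genes Nkg7 and Cd79b were higher, with Cd79a at 0.202, 0.184 and 0.283 CPM and Cd3e at 0.202, 0.221 and 0.235. Summed levels of the granulocyte and monocyte list were 297 to 344 CPM in preMegE, 252 to 281 in HSC and 33.5 to 67.6 in preCFU-E, and those of the lymphoid list 232 to 293, 40.5 to 49.5 and 31 to 36.6. The macrophage and dendritic cell list (2 of 19 higher) summed to 368 to 436, 198 to 362 and 207 to 254 CPM, and the endothelial and stromal list (2 of 10 higher) to 91.5 to 107, 61.4 to 108 and 20.9 to 28. In preMegE, Nkg7 made up most of the lymphoid sum and Apoe most of the macrophage and dendritic cell sum. The part of other cells in these results was not tested.

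Of the 7 tested genes behind the sorting antigens, Itga2b, Fcgr2b and Cd48 were higher in preMegE (42.9%) and none was lower. Over all tested genes 3.26% were higher and 1.05% lower. Slamf1 (CD150) and Kit passed the contrast (adjusted p 0.000753 and 0.00404), but their preMegE libraries were not clear of both other populations. Ly6a (Sca-1) did not pass (adjusted p 0.131). Fcgr2b, a chain of the FcgRII/III gate, had 6.1, 6.32 and 5.46 CPM against 0.662 to 1.45 in HSC and 0.156 to 0.52 in preCFU-E (contrast 3.39, SE 0.37, adjusted p 9.72e-07), while Fcgr3 did not pass the filter at 0.202, 0.331 and 0.707 CPM. The gate excluded these proteins from both progenitors alike. Cd48 was part of the HSC gate: it had 53.8, 69.8 and 75.4 CPM in preMegE and 0.533, 0 and 0.353 in HSC, whose gate required its absence, and 29.2, 36.7 and 36.6 in preCFU-E. Eng, which encodes CD105, had 85.7, 109.7 and 96.5 CPM in the CD105- preMegE and 126, 157 and 136 in the CD105+ preCFU-E, and it was not among the higher or lower genes.

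Apart from the histone list, growth and housekeeping lists held few or none of these genes. Over all tested genes 3.26% were higher and 1.05% lower. No member was called among 49 S phase genes, 44 large and 31 small ribosomal subunit genes, 65 ribosome biogenesis genes, 73 nuclear oxidative phosphorylation genes, 35 proteasome genes, 22 cytosolic tRNA synthetases, 31 nucleotide synthesis genes or 24 amino acid transport and stress genes. These lists were intermediate: the median difference of ribosome biogenesis genes was 1.30 from HSC and -1.12 from preCFU-E. Npm1, a nucleolar assembly factor, shows this at 1832, 2176 and 2029 CPM in preMegE, 757 to 979 in HSC and 5057 to 6741 in preCFU-E. Of 77 mitochondrial ribosomal protein genes 1 was lower (Mrps10, not with length-scaled counts, adjusted p 0.123). Of 53 G2 and M phase genes 1 was higher (Cdc25b). Of 51 histone genes 1 was higher (1.96%) and 3 were lower (5.88%). Hist1h2ak was the clearest of these, at 29.1, 20.8 and 22.2 CPM against 60.4 to 86.8 and 35 to 57.2. The call of Cdc25b was lost without HSC WT 3, preMegE WT 2, preMegE WT 3, preCFU-E WT 2 or preCFU-E WT 3, with an adjusted p of up to 0.177, and with length-scaled counts (0.139). The other 3 histone calls (Hist1h2bc higher, Hist1h4c and Hist2h2ac lower) were also lost with single libraries left out: Hist1h2bc without preMegE WT 2 or 3 (adjusted p up to 0.124) and with a replicate block in the progenitors (0.0724), Hist2h2ac without any 1 preMegE library (0.0759), and Hist1h4c unless HSC WT 1 or preCFU-E WT 2 was left out (0.182). Hist1h4c was also lost in 5 of 10 alternative analyses, both replicate blocks among them, with an adjusted p of up to 0.214.

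Smaller response lists each gave a few genes. Of 29 p53 targets 4 were higher and none lower (3.26% and 1.05% of all tested genes). Cdkn1a had 9.25, 10.4 and 12.9 CPM in preMegE, 0.913, 3.03 and 4.79 in HSC and 2.03, 1.61 and 2.06 in preCFU-E. Cdkn1a, the cell cycle inhibitor p21, was higher in each preMegE library than elsewhere (contrast 2.21, SE 0.37, adjusted p 0.000254), as was Trp53inp1 at 49.7, 44.8 and 40.5 CPM against 25 to 29.8 and 3.2 to 4.54. Btg2 and Xpc were the other 2. Of 21 immediate early genes 4 were higher, Jun (21.6, 12.6 and 12.1 CPM against 2.63 to 5.94 and 3.27 to 3.59), Btg2, Fos and Ier2. Fos stayed under 2 CPM and was kept only without HSC WT 2 or preCFU-E WT 3, and Ier2 only without HSC WT 2 or preCFU-E WT 1, with adjusted p of up to 0.146 and 0.118 otherwise (0.0527 for Ier2 with RLE scaling). Leaving out HSC WT 1 or 3, preCFU-E WT 2 or any single preMegE library left 2 of the 4.

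Apoptosis regulators also included higher genes, 3 of 25 tested (12%). Over all tested genes 3.26% were higher and 1.05% lower. Shares higher were 7.5% for the interferon response list below, and near that of all genes for heme and iron genes (3.7%) and chaperones (2.6%). Apaf1, the scaffold of the apoptosome, had 85.1, 78.7 and 79.9 CPM in preMegE against 24.2 to 36.8 and 61.7 to 64.5, and Bnip3l, a mitophagy receptor of maturing red cells, 256, 301 and 276 against 101 to 126 and 204 to 226. In both, preCFU-E was the nearer population, and with length-scaled counts Apaf1 did not pass (adjusted p 0.162) and Bnip3l overlapped. Cholesterol synthesis genes gave 3 higher of 22 (Hmgcs1, Srebf2 and Stard4). Srebf2 had 111, 122 and 135 CPM against 83 to 98.4 and 89.4 to 106, and lost its call without preMegE WT 2 or WT 3 (adjusted p up to 0.169), with RLE scaling (0.0566), with length-scaled counts (0.106) and with a replicate block in the progenitors (0.0554). Hmgcs1 did not pass with length-scaled counts (0.141). The interferon response list gave 3 higher of 40 (Ifit2, Ifi47 and Psmb9) and none with length-scaled counts. Of 27 heme and iron genes Ncoa4, the ferritin receptor for autophagy, was higher at 253, 315 and 299 CPM against 172 to 207 and 158 to 221. Ppox, an enzyme of heme synthesis, was lower at 7.92, 7.17 and 6.64 CPM against 11.4 to 25.8 and 13.8 to 17.4, but did not pass with length-scaled counts (adjusted p 0.171). Slc25a37, on this list too, was the other lower gene. Of 39 chaperones Dnajb9 was higher, but not without preMegE WT 2 or WT 3 (adjusted p up to 0.0813) or with length-scaled counts (0.125). Of 3 PTB family genes Ptbp3, a paralog of the deleted gene, was higher at 1075, 1183 and 1053 CPM against 404 to 429.7 and 872 to 1039, and its libraries overlapped those of preCFU-E with RLE scaling and with DESeq2. Of 23 glycolysis genes, Pfkfb3 was higher and Pfkp and Slc2a3 were lower, and none of the 3 calls was stable: the adjusted p reached 0.19, 0.213 and 0.172 with a library left out. Pfkfb3 was kept only without HSC WT 1 or preCFU-E WT 1, Pfkp only without HSC WT 1, HSC WT 2 or preMegE WT 3, and Slc2a3 only without HSC WT 3, preMegE WT 3 or preCFU-E WT 3.

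Genes low in preMegE were fewer. Mboat2 had 2.91, 2.24 and 2.73 CPM in preMegE, 20.6, 19.8 and 31.2 in HSC and 24.6, 35.8 and 42.4 in preCFU-E. Mboat2 (ENSMUSG00000020646, chromosome 12, 24830879 to 24964397), an acyltransferase that remodels membrane phospholipids, was several-fold lower in preMegE than in any other WT library (contrast -3.44, SE 0.40, adjusted p 2.88e-06). Agpat3, another phospholipid acyltransferase, had 4.28, 5.07 and 5.51 CPM in preMegE against 20.8 to 25.9 in HSC and 20.7 to 30.2 in preCFU-E. Mfhas1 encodes a protein with leucine-rich repeats. Mfhas1 had 2.87, 1.62 and 1.65 CPM in preMegE, 13, 13.5 and 16.6 in HSC and 21.7, 26.4 and 24.5 in preCFU-E, again without overlap (contrast -3.18, SE 0.34, adjusted p 7.69e-07). Ryk, an atypical receptor for Wnt proteins, had 2.75, 3.23 and 3.63 CPM against 13.8 to 23.6 and 11.4 to 15.6 (contrast -2.29, SE 0.25, adjusted p 1.11e-06). Evi5, which acts on Rab GTPases, had 3.92, 3.38 and 3.96 CPM in preMegE, and every other WT library had at least 11.1. Dock9, an activator of CDC42, had 6.71, 8.23 and 7.68 CPM, and every other WT library had at least 18.2.

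Igf2r, the receptor that takes lysosomal enzymes and IGF2 from the surface, was lower than in both other populations. Igf2r had 13.4, 7.57 and 8.38 CPM in preMegE, 22.7, 33.9 and 26.1 in HSC and 59.7, 69.2 and 78.6 in preCFU-E, so that preCFU-E was highest (contrast -2.16, SE 0.23, adjusted p 8.19e-07). Clca3a1, of the CLCA family, fell in the opposite order, with 10.6, 12.3 and 8.85 CPM in preMegE, 23.2 to 27.9 in preCFU-E and 54.2 to 64.7 in HSC. Tomm6, a subunit of the mitochondrial import pore, had 8.12, 6.91 and 8.05 CPM against 19.1 to 25.6 and 16.7 to 26. Its exons overlap those of Usp49 on the opposite strand and the strand setting is unknown, so its value is uncertain. Rxra, the retinoid X receptor, had 2.79, 3.34 and 4.52 CPM against 4.79 to 17.7 and 9.5 to 10.6, and its adjusted p of 0.00763 rose to as much as 0.065 without preMegE WT 1 or WT 2. The other 9 named lower genes kept their call with each WT library left out and in the 10 alternative analyses.

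**Figure D4:**
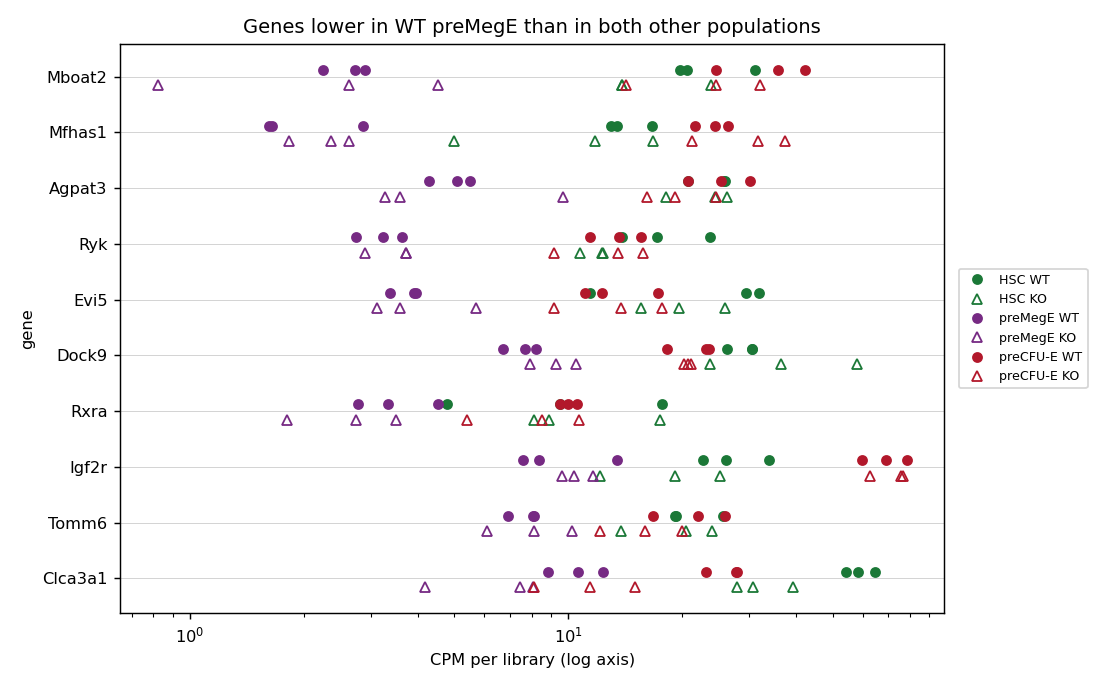
CPM per library on a log axis for the 10 protein-coding genes with the largest difference below the nearer population; filled circles are WT, open triangles KO, and colours are populations. The 3 preMegE WT points lie to the left of all other WT points, narrowly so for Rxra, whose lowest HSC library had 4.79 CPM.

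The KO libraries gave a look at the same genes in libraries whose levels were not part of the WT contrast or non-overlap. WT and KO share the low-count filter, the scaling step and the fitted dispersion. In KO, 709 genes were higher (3.39%) and 242 lower (1.16%) in preMegE by the same rule. Of the 682 genes higher in WT, 440 (64.5%) were also called higher in KO, which is 62.1% of the KO list. Of the 220 lower genes 90 (40.9%) were called lower in KO, or 37.2% of that list, with 52 and 50 when preCFU-E KO 1 or 2 was left out, 136 by DESeq2 and 47 with length-scaled counts. The contrast kept its sign in 676 (99.1%) and 217 (98.6%), while 50.7% of all tested genes were above and 49.3% below 0 in KO. The median contrast was 1.06 in WT and 0.99 in KO for the higher genes, and -1.03 and -0.94 for the lower genes. All 14 named higher and all 10 named lower genes were called the same way in KO. By list, KO called 6 of 18 mast cell and basophil genes higher, 8 of 37 adhesion genes, 9 of 74 transcription factors, 10 of 53 receptors, 7 of 30 granulocyte and monocyte genes and 1 of 7 sorting antigens.

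Ms4a2 had 4.76, 15.3 and 12.3 CPM in KO preMegE and a KO contrast of 4.71 (SE 0.62, adjusted p 1.37e-05), and Btnl9 had 82.4, 108 and 108 CPM and 4.08 (SE 0.19, adjusted p 1.06e-11). Mboat2 had 0.821, 4.51 and 2.63 CPM in KO preMegE, lowest in replicate 1, with a KO contrast of -2.94 (SE 0.40, adjusted p 1.87e-05). Itga2b, in contrast, was not called by the full rule in KO: it had 49.7, 37.5 and 65.8 CPM in KO preMegE, and these overlapped the 21.7 to 57.2 of KO HSC, although its KO contrast was 2.60 (SE 0.25, adjusted p 2.24e-07). The difference of its contrast between KO and WT was -0.88 (SE 0.37, adjusted p 1). One gene, Casp16-ps, a pseudogene under 1 CPM in WT preMegE, was called higher in WT and lower in KO. Its WT adjusted p of 0.0345 was lost in 8 of 9 fits with a library left out, all but the one without HSC WT 1, reaching 0.188.

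When the contrast itself was compared between KO and WT, edgeR called 1 gene of 20907 (0.00478%), which was not among the 902 described here, and 887 (4.24%) had an unadjusted p below 0.05. DESeq2 called 19 and limma voom 0. None of the 682 higher and 220 lower genes was thus called as different in edgeR, and for genes chosen in WT this difference also contains the libraries that chose them.

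**Figure D5:**
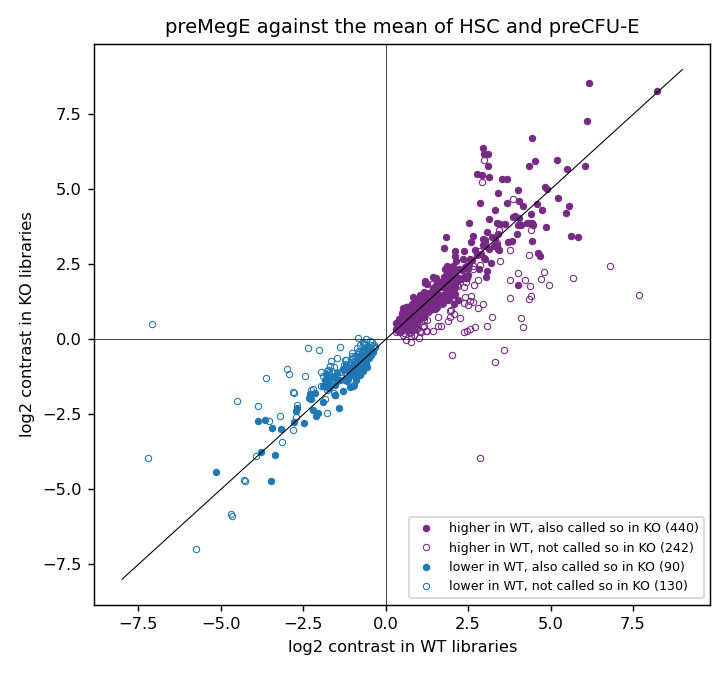
Log2 contrast of preMegE against the mean of HSC and preCFU-E in WT (x) and in KO (y) for the 682 higher and 220 lower genes; filled points, 440 and 90, were called the same way in KO, and the line marks equal values. Most points lie near the line, and the far outlier below it is Casp16-ps, with a KO contrast of -3.96.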

How the data were processed

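Deposited files held, for each transcript, the authors' estimated counts and TPM. Per the submitters' processing notes Salmon 0.12.0 was used with mm10 and GRCm38.p6, while its index, annotation and strand setting are details not given in these sources. Per the labels' protocols the RNA was amplified with a NuGEN Ovation kit. Estimated counts of 136176 of 136288 transcripts were summed per gene of GENCODE M21 (unmatched transcripts held at most 0.084% of reads) and rounded to whole numbers. The deposited TPM values entered 1 alternative, counts scaled to transcript length.

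edgeR 4.0.16 (R 4.3.3) fitted 6 group means to all 18 libraries, with TMM scaling, filterByExpr and robust quasi-likelihood tests, which left 21565 genes, 20907 of them autosomal. P-values were Benjamini-Hochberg adjusted over all 21565 genes, with a threshold of 0.05. A call also required that the preMegE libraries overlapped no library of the other 2 populations. CPM are on TMM-scaled library sizes and are not per length, so levels are not compared between genes. All members and gene lists were chosen with earlier results of these data known. Named by size are the 14 protein-coding genes furthest above (at least 10 CPM in preMegE) and the 10 furthest below (at least 10 CPM in both others) the nearer population, and up to 3 lincRNA or antisense genes a direction. For each list up to 4 called members a direction, or the most abundant member, were named, besides the sorting antigens and the genes at the threshold. Genes named beyond these were chosen after their values were seen, such as absent markers, the remaining called list members and Casp16-ps.

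Same-numbered preMegE and preCFU-E libraries deviated together (correlations of 0.54, 0.30 and 0.57 across genes), whereas HSC libraries did so with neither (-0.064 to 0.043), so a replicate block was tried over the progenitors alone, an alternative chosen after seeing the data. Further alternatives used limma 3.58.1 (voom), DESeq2 1.42.0, RLE scaling, other filters, WT libraries alone, no mitochondrial genes, a block over all populations, and each library left out. SEs come from the edgeR fit and cover the spread between libraries, which exceeded counting error (chi-square per degree of freedom of 13.7 to 159.8 between replicates), and limits for a count of 0 cover counting error only. Some items are not reported here.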

Additional observations from a re-analysis of the deposited data

Results flagged for a closer look

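The difference between the KO and the WT contrast passed the test for 1 gene, Rps23-ps1, which is not one of the genes described above. The fitted difference was -4.76 on the log2 scale, against a WT HSC group with no read in any of its 3 libraries, so its size is no bound. Its level was 229, 189 and 193 CPM in WT preMegE and 183, 213 and 276 in KO preMegE, while KO HSC had 2.26, 8.15 and 5.39. The gene is a processed pseudogene of the small-subunit ribosomal protein gene Rps23, so reads could be assigned to either copy, and its count is uncertain. With a KO library left out in turn, the number of genes passing was between 0 and 2, and it was 0 without HSC KO 3, preMegE KO 1, preMegE KO 2 or preCFU-E KO 3.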

How the results depend on the processing

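Across 10 alternative analyses the count of higher genes was 587 to 805 and that of lower genes 154 to 330. Leaving out 1 WT library gave 565 to 794 higher and 128 to 219 lower genes. Of the 682 higher genes 428 (62.8%) were called in every alternative and 497 (72.9%) with every library left out, and of the 220 lower genes 89 (40.5%) and 91 (41.4%). No called gene named here changed the sign of its contrast. Asking for both pairwise differences to pass gave 184 and 35 genes, and asking for a difference of at least 1 from the nearer population 240 and 80. With a library left out the counts for both pairwise differences were 116 to 166 higher and 16 to 31 lower, and the lower count was 57 with WT libraries alone, 85 by DESeq2 and 18 with length-scaled counts. With a replicate block over all 3 populations, whose numbers pair only the progenitors, there were 802 higher and 259 lower genes, and 57 lower genes by both differences. With the block over the progenitors alone there were 682 and 201. In KO, length-scaled counts gave 158 lower genes. Genes lower in both WT and KO numbered 136 by DESeq2, 47 with length-scaled counts and 50 to 108 with a KO library left out. The number of genes whose contrast differed between KO and WT was 19 by DESeq2, 0 by limma voom and 0 to 2 with a KO library left out. The causes were not tested. No scaling moved the median of all genes by 0.1 or more. Depth limits genes under 1 CPM, which hold 30 of the higher and 48 of the lower genes' preMegE means.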

Other observations

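Further genes, chosen after their values were seen, are given by their values. H2-Ob, on chromosome 17, encodes a chain of a class II antigen presentation cofactor and had 52.8, 44.7 and 36.7 CPM against 4.68 to 10.1 in HSC and 1.71 to 2.78 in preCFU-E, and its partner chain H2-Oa had 15.7, 19.8 and 16 against 1.41 to 8.32 and 4.34 to 5.33. H2-DMa had 84.1, 95.3 and 77.6 CPM against 31.8 to 50.3 and 24 to 38.4. None of these 3 overlapped the other populations in WT. F2r, the thrombin receptor PAR1, lies on chromosome 13 with F2rl2 and had 609, 704 and 630.5 CPM in preMegE against 88.2 to 97.5 and 137 to 144. Siglecf, a sialic acid receptor of eosinophils, had 29.2, 23.3 and 26.1 CPM against 0.189 to 0.504 and 5.19 to 6.66, although Epx was 0 in all 3 preMegE libraries. Cst7, an inhibitor of granule proteases, had 26.6, 35.8 and 32.2 CPM against 0 to 0.189 and 5.62 to 6.71, and Clec4d, a C-type lectin of myeloid cells, 25.1, 23.7 and 19.7 against 0 to 0.837 and 5.12 to 7. St8sia6, a sialyltransferase, went from at most 0.426 CPM in HSC to 260.0, 259 and 163 in preMegE and 53.5 to 61.3 in preCFU-E.

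Among the lower genes, the desaturase gene Fads3 had 1.5, 0.808 and 0.707 CPM in preMegE against 7.54 to 9.79 in HSC and 2.84 to 5.62 in preCFU-E, and its neighbour Fads2 22.9, 19.7 and 19.6 against 23.4 to 31.9 and 48.5 to 61.8. Fads2 overlapped HSC in 3 of 10 alternative analyses. Airn, the antisense RNA of the Igf2r locus, was also lower at 4.04, 3.27 and 3.01 CPM against 8.16 to 15.3 and 4.62 to 7.16, and its adjusted p of 0.00747 rose to as much as 0.063 without preMegE WT 2 or preMegE WT 3 and to 0.0824 with length-scaled counts. Airn and Igf2r overlap on opposite strands and the strand setting is unknown, so its value is uncertain.

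Several predicted gene models stood out by 1 library. Gm10800 had 382, 137 and 139.9 CPM in WT preMegE and 936, 392 and 286 in KO preMegE, against 0.151 to 21 in WT HSC and 74.7 to 110.2 in WT preCFU-E. Gm10801 had 15.2, 4.7 and 5.42 CPM and Gm10717 14.5, 5.7 and 6.26 in WT preMegE. In each of these models replicate 1 was more than 2 times the other 2 libraries, in KO as in WT. The call of Gm10800 was lost without any 1 preMegE or preCFU-E library (adjusted p up to 0.137), in the fit of WT libraries alone (0.0867) and with a replicate block over all populations (0.0529) or the progenitors (0.143), and the cause was not tested.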
